A study of Mus musculus with 9 samples.

Results

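Amino acid transporters of 7 solute carrier families, Slc1, Slc3, Slc6, Slc7, Slc36, Slc38 and Slc43, were followed in islets of βRapKO and WT mice. Every gene whose symbol carries one of these family names was a member, and each was read from the probe set with the highest mean signal among those annotated to it alone. This gave 63 members among the 18193 genes of the array. Of these, 3 (*Slc6a19os*, *Slc7a6os* and *Slc36a1os*) are opposite-strand transcripts named after a transporter gene and not transporters themselves. βRapKO mice were *Raptor* flox/flox and carried Cre under the rat insulin promoter (RIP-Cre, from a line of mixed strain background). WT mice were littermates that were *Raptor* flox/flox without Cre, so both groups carried the floxed alleles, and an effect of the Cre transgene itself cannot be told apart from the loss of *Raptor*. All mice were 8-week-old males. There were 4 βRapKO and 5 WT arrays, each with RNA pooled from the hand-picked islets of 5 animals of 1 genotype. The comparison asks which transcripts differ once beta cells have lost Raptor, a subunit of the kinase complex mTORC1.

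Amino acid transporters link nutrient supply to mTORC1. Leucine, glutamine and arginine carried into the cell are sensed at the lysosome, where the Rag GTPases bring mTORC1 to the membrane, and mTORC1 in turn promotes translation of the transcription factor Atf4, which drives many genes of amino acid uptake and synthesis. In beta cells, glutamine, leucine and arginine also modify insulin secretion, and charged amino acids that enter through cationic transporters can depolarise the membrane.

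Values are the deposited log2 signals, so a difference of 1 is 2-fold, and differences are βRapKO minus WT. A probe set's signal depends on its own hybridisation, so levels were compared between arrays and not between genes. The 25% of genes with the lowest mean signal were left out, which kept 13644 genes, and limma was fitted over all of them with Benjamini-Hochberg adjustment. A gene was called when its adjusted p was under 0.05. *Rptor*, which encodes Raptor, had signals of 8.59, 8.48, 9.21 and 8.73 in βRapKO islets and 9.53, 9.59, 9.71, 9.22 and 9.30 in WT islets. The groups did not overlap, and the difference was -0.72 ± 0.17 (SE; limma, adjusted p = 0.0410). The call was kept when βRapKO replicate 3 or WT replicate 4 was left out and lost without any other single array (adjusted p up to 0.115). With its 3 probe sets averaged, 2 of them dim, the difference was -0.16.

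The islets of both groups carried the transcripts of the endocrine cell types, with other cells beside them. The mean over 8 beta cell markers ranged from 13.23 to 13.42 in βRapKO islets and from 13.84 to 14.02 in WT islets, 5 of the 8 were called lower, and the exact two-sided permutation p was 0.00794, the smallest that these group sizes allow. The stromal marker mean ranged from 9.09 to 9.59 in βRapKO islets and from 7.87 to 8.66 in WT islets, with 8 of 17 markers called higher and none of the 17 at the floor of the scale (exact permutation p = 0.00794). Delta cell (0.45), endothelial (0.33) and Schwann and glial (0.88) marker means were likewise higher in βRapKO islets on the log2 scale, each with the same exact permutation p (0.0159 after adjustment over the 10 marker lists). Ductal markers differed by 0.92 (exact permutation p = 0.0159), while alpha cell (0.15), PP and epsilon cell (0.10) and macrophage (0.22) marker means did not pass, with exact permutation p of 0.127, 0.532 and 0.159. Few single markers of these lists were called. They were 1 of 3 tested delta cell, 1 of 16 endothelial, 1 of 5 Schwann and glial and 1 of 9 macrophage markers, all higher. None of the 3 ductal, 3 alpha cell or 2 PP and epsilon cell markers was called. The acinar marker mean varied widely within both groups, from 8.38 to 12.99 in βRapKO islets and from 8.91 to 12.92 in WT islets (exact permutation p = 0.770). Whole islets were measured, so cell number and RNA per cell cannot be told apart for the markers above or for any members below. The paper reports reduced expression in βRapKO islets of transcription factors that maintain beta cell maturity, such as *MafA*. It also reports higher *Pdgfra*, among genes that are normally repressed in beta cells. Means over markers of these kinds can differ without a change in cell numbers, so they are not read as cell composition.

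Of the 63 members, 40 were bright enough to be tested and 5 of these were called. *Slc7a3*, *Slc43a3* and *Slc6a17* were higher in βRapKO islets, and *Slc6a19* and *Slc43a2* were lower. The 5 calls are 12.5% of the tested members, beside 6.3% of all tested genes called in either direction. Separately, 3.67% of all genes were called higher and 2.63% lower. The median difference over the 40 tested members was -0.01, beside 0.04 over all tested genes, and 20 members had a positive and 20 a negative difference. The 4 βRapKO values lay entirely on one side of the 5 WT values for 8 members, the 5 called ones and *Slc1a4*, *Slc38a4* and *Slc7a14*, whose βRapKO values were all on the lower side. That makes 3 members on the higher and 5 on the lower side. Over all tested genes the groups did not overlap for 12.5%, with 7.43% on the higher side and 5.05% on the lower side. At an unadjusted p under 0.05 there were 11 members, 6 higher and 5 lower, beside 21.8% of all tested genes. The plot of differences by family shows members on both sides of 0 in each of the 7 families.

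**Figure D1:**
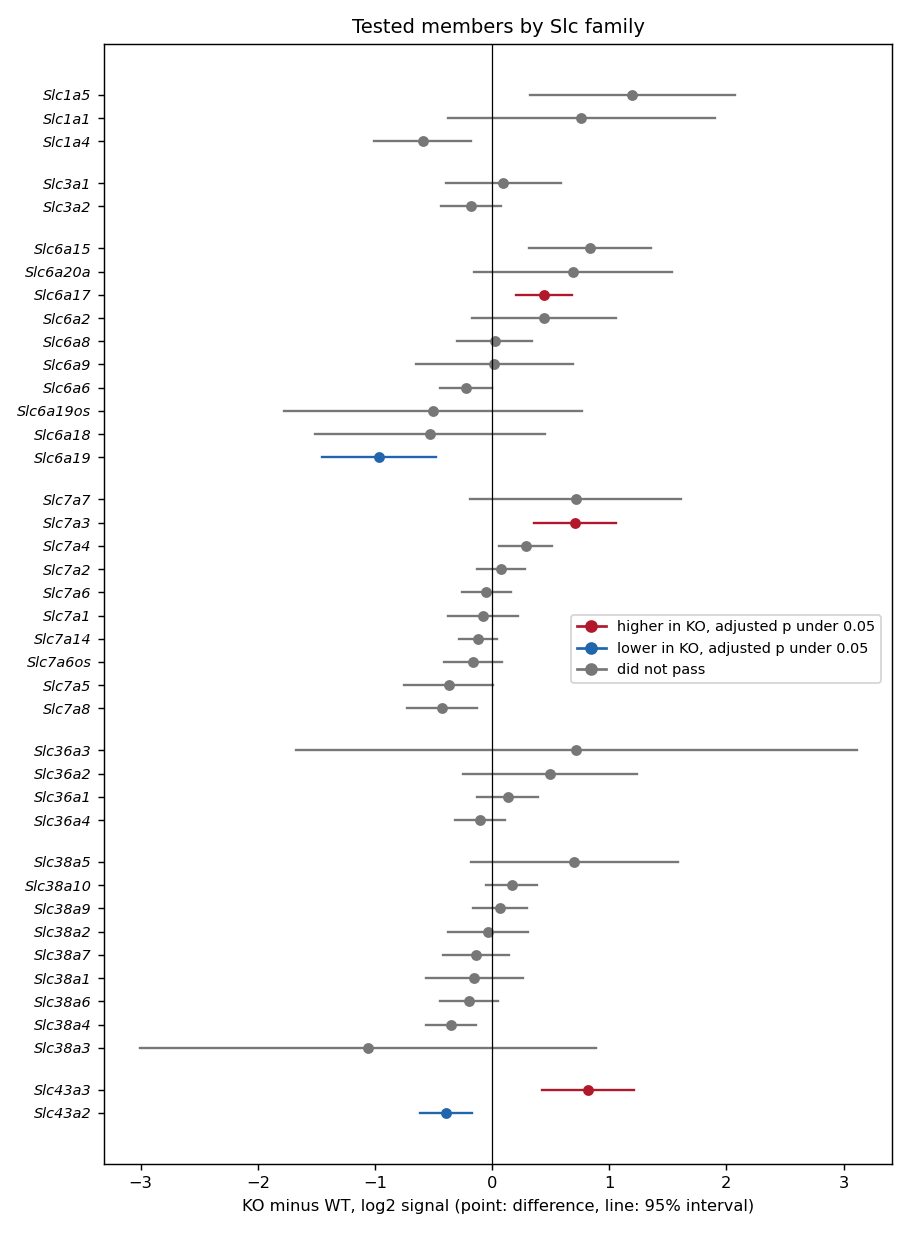
Difference in log2 signal between βRapKO (KO) and WT islets for the 40 tested members, grouped by Slc family from the top down. Points are KO minus WT, lines are 95% intervals, red and blue mark the 3 members called higher and the 2 called lower, and grey those that did not pass.

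Precision depended on signal. The 19 tested members with a mean signal of at least 9 had a median within-group SD of 0.138, and 18 of them differed by less than 0.5 between the groups. For 18 of the 19 the 95% interval lay within 1 log2 unit of 0. The 21 tested members below a mean of 9 had a median SD of 0.446, and for 6 of these the interval lay within 1 log2 unit of 0. The 23 members that were not tested had mean signals between 2.30 and 5.39 and a median SD of 1.25. In a fit that kept every gene, none of these 23 reached an unadjusted p under 0.05.

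Among the neutral amino acid exchangers of Slc1, the 2 members differed in opposite directions, and neither passed the test. *Slc1a4* (ASCT1, which exchanges alanine, serine and cysteine) had 8.24, 7.94, 8.31 and 7.87 in βRapKO islets and 8.66, 8.53, 9.27, 8.50 and 8.46 in WT islets. No βRapKO value reached the lowest WT value, and the difference was -0.59 ± 0.18 (SE; limma, adjusted p = 0.0941). Its dimmer probe sets gave -0.53 and -1.94. *Slc1a5* (ASCT2, a glutamine exchanger) had 6.95, 7.62, 7.30 and 7.49 in βRapKO islets and 4.89, 6.44, 5.97, 6.32 and 7.11 in WT islets. A single WT array lay inside the βRapKO range, and the difference of 1.20 ± 0.39 did not pass (limma, adjusted p = 0.107). It passed only when that array, WT replicate 5, was left out (adjusted p = 0.0488), and a dimmer *Slc1a5* probe set gave -0.35. Of the 5 acidic amino acid transporters of the family, *Slc1a1* (EAAT3) alone was tested, at 0.76 ± 0.50 (limma, adjusted p = 0.428).

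Promoter sequence was read for the 46 members with an entry in the RefSeq table of the GRCm38.p6 assembly, which gives 250 bases before and 50 after each annotated start. The element TGATGNAA, bound by Atf4 with C/EBP factors, was searched on both strands and lay in the promoters of 4 member genes, *Slc1a4*, *Slc7a11*, *Slc7a7* and *Slc6a21*. That is 8.70% of the member genes and 4.51% of all genes in the table. CACGTG, the E-box core bound by Myc and by the lysosomal regulators Tfeb and Tfe3, reads the same on both strands. It lay in the promoters of 9 member genes, 19.6% of the members beside 8.09% of all genes, and 4 of these 9 were tested. Counted by promoter, as a gene can have several, the shares were 13.4% beside 7.15% for CACGTG. For the Atf4 element they were 7.46% beside 3.97%. None of the called members, some of them without an entry, was among the genes with either motif. The stretches below show the 2 motifs in capitals for *Slc1a4* (chr11:20332710-20332809, minus strand), whose groups did not overlap, for *Slc7a11* (chr3:50443624-50443723, minus strand), which carries the Atf4 element on both strands, and for the lysosomal *Slc36a1* (chr11:55204243-55204342, plus strand), which carries the E-box in both of the marked places.
Slc1a4: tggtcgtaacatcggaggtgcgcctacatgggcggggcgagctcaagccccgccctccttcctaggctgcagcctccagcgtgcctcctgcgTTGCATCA
Slc7a11: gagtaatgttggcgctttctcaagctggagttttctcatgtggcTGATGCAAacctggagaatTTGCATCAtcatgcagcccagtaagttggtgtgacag
Slc36a1: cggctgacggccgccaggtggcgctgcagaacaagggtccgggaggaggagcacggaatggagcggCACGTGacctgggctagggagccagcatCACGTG
The *Slc1a4* and *Slc7a11* stretches share the same letters of the element, TGATGCAA on one strand and TTGCATCA on the other, and in *Slc1a4* the element spans the annotated start. No stretch holds both motifs. Of the 4 genes with the Atf4 element, *Slc1a4* and *Slc7a7* were tested, and *Slc7a7* differed by 0.71, on the other side of 0 from *Slc1a4* (limma, adjusted p = 0.342). A dimmer *Slc7a7* probe set gave -0.46, and the average of both gave 0.13.

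Neither heavy chain passed the test, nor did any of the 4 tested light chains, and the other 6 light chains were too dim to test. *Slc3a2* (4F2hc or CD98), the glycoprotein that carries the Slc7 light chains to the plasma membrane, had 11.73, 12.04, 12.05 and 11.78 in βRapKO islets and 11.84, 12.09, 12.19, 12.06 and 12.22 in WT islets. The values overlapped, and the difference of -0.18 had a 95% interval from -0.44 to 0.08 (limma, adjusted p = 0.404). *Slc3a1* (rBAT), the heavy chain of the cystine transporter of kidney and gut, had 7.47, 6.96, 7.23 and 7.95 in βRapKO islets, against 7.41, 6.89, 7.20, 7.67 and 7.36 in WT islets. That difference was 0.09, with an interval from -0.40 to 0.58 (limma, adjusted p = 0.856).

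The 2 light chains for large neutral amino acids had lower means in βRapKO islets without passing the test. *Slc7a5* (LAT1, which brings in leucine in exchange for glutamine) had 10.56, 10.41, 10.48 and 10.66 in βRapKO islets and 10.55, 10.77, 11.22, 10.66 and 11.28 in WT islets. The WT values spread more widely and reached into the βRapKO range, and the difference was -0.37 ± 0.17 (limma, adjusted p = 0.241). *Slc7a8* (LAT2) had 10.43, 10.40, 10.46 and 10.84 in βRapKO islets and 10.76, 10.96, 11.11, 10.81 and 11.19 in WT islets. Of the βRapKO arrays only replicate 4 reached the WT values, and the difference was -0.43 ± 0.13 (limma, adjusted p = 0.0925). *Slc7a8* passed in the fit whose prior variance followed the signal (adjusted p = 0.0367). *Slc7a6* (y+LAT2) differed by -0.05, with a 95% interval from -0.26 to 0.16. *Slc7a11* (xCT, which takes up cystine against glutamate) was among the dim members that were not tested, with 5.92, 5.30, 4.70 and 4.94 in βRapKO islets and 5.32, 4.47, 2.69, 5.48 and 3.99 in WT islets. *Slc7a9*, *Slc7a10*, *Slc7a12*, *Slc7a13* and *Slc7a15* were also too dim to test.

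**Figure D2:**
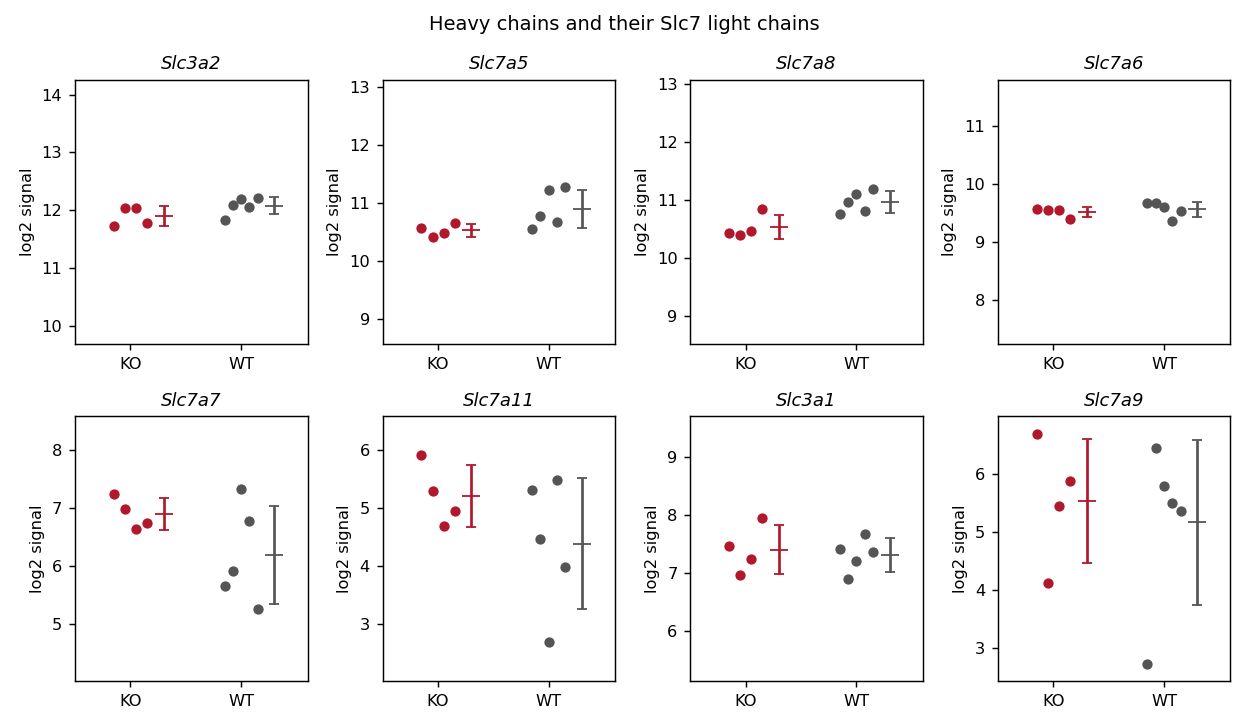
Log2 signal of the heavy chains *Slc3a2* and *Slc3a1* and of 6 Slc7 light chains in 4 βRapKO (KO, left) and 5 WT (right) arrays, with the mean and SD beside the points. KO and WT points overlap in all 8 panels, and *Slc7a5* and *Slc7a8* have KO means of 10.53 and 10.54, against 10.90 and 10.96 in WT.

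Among the cationic amino acid transporters, *Slc7a3* was higher in βRapKO islets while *Slc7a1* and *Slc7a2* had narrow intervals around 0. *Slc7a3* (CAT3, an arginine and lysine carrier known mainly from brain) had 7.51, 7.35, 7.93 and 7.86 in βRapKO islets and 6.84, 7.06, 7.14, 7.09 and 6.66 in WT islets. All 4 βRapKO values lay above all 5 WT values, and the difference was 0.71 ± 0.16, a 1.63-fold higher signal (SE; limma, adjusted p = 0.0328). It was the one probe set of that gene on the array. *Slc7a1* (CAT1, the general arginine and lysine carrier) had 11.24, 11.03, 11.00 and 11.02 in βRapKO islets and 11.11, 11.08, 11.29, 10.81 and 11.45 in WT islets, a difference of -0.08 with a 95% interval from -0.38 to 0.22. *Slc7a2* (CAT2) had 13.29, 13.18, 13.18 and 13.24 in βRapKO islets and 13.14, 12.93, 13.21, 13.21 and 13.25 in WT islets. Its difference was 0.08, with an interval from -0.13 to 0.28 (limma, adjusted p = 0.681). Both intervals lie inside a 1.5-fold difference in either direction. The other probe sets gave 0.18 and 0.56 for *Slc7a1*, and 0.23, -0.02 and -0.07 for *Slc7a2*.

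The CAT-related members gave small differences. *Slc7a4* had a mean of 10.16 ± 0.19 in βRapKO islets and 9.87 ± 0.05 in WT islets (SD, n = 4 and 5), a difference of 0.29 (limma, adjusted p = 0.136). *Slc7a14*, an intracellular relative, had 12.73, 12.82, 12.67 and 12.82 in βRapKO islets and 12.86, 12.86, 12.86, 12.92 and 12.90 in WT islets. Its groups did not overlap, yet the difference was only -0.12 ± 0.07 (limma, adjusted p = 0.382).

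The sodium-driven neutral amino acid carriers of Slc6 moved in both directions. *Slc6a19* (B0AT1, the main neutral amino acid transporter of kidney and gut epithelium) had 7.98, 8.27, 8.37 and 7.43 in βRapKO islets and 9.17, 9.23, 9.10, 8.80 and 8.58 in WT islets. The signal fell in βRapKO islets by 0.97 ± 0.21 on the log2 scale, and was 1.95-fold higher in WT islets (SE; limma, adjusted p = 0.0338). A dimmer *Slc6a19* probe set gave -1.13 (limma, unadjusted p = 0.0269). *Cltrn* (collectrin), which carries B0AT1 to the membrane in the kidney, differed by 0.11 (limma, adjusted p = 0.542).

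*Slc6a17* (NTT4, found on synaptic vesicles in neurons) had 10.68, 10.98, 10.97 and 11.07 in βRapKO islets and 10.38, 10.40, 10.57, 10.45 and 10.62 in WT islets. It rose by 0.44 ± 0.10, or 1.36-fold, in βRapKO islets (SE; limma, adjusted p = 0.0420), and its other 2 probe sets gave 0.48 and 0.23 without passing. *Slc6a15* (B0AT2, a carrier of branched-chain amino acids and proline), named after its values were seen, had 7.91, 7.07, 7.82 and 7.80 in βRapKO islets and 7.09, 6.60, 7.31, 6.51 and 6.56 in WT islets. Only βRapKO replicate 2 reached the WT values, and the difference was 0.84 ± 0.23 (limma, adjusted p = 0.0673). It passed without βRapKO replicate 2 (limma, adjusted p = 0.0367) and without WT replicate 3 (adjusted p = 0.0464).

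The Slc6 carriers of taurine, creatine and glycine did not pass. *Slc6a6* (the taurine transporter) had 11.53, 11.78, 11.83 and 11.54 in βRapKO islets and 11.98, 11.99, 11.90, 11.79 and 11.79 in WT islets, a difference of -0.22 ± 0.10 (limma, adjusted p = 0.236). Its other probe sets gave -0.60, -0.58 and -1.30, and the average of all 4 gave -0.67 (limma, adjusted p = 0.324). *Slc6a9* (GlyT1, a glycine transporter) had 7.09, 7.36, 7.77 and 7.88 in βRapKO islets and 7.80, 7.56, 8.15, 7.36 and 6.65 in WT islets. The WT values spanned the whole βRapKO range, and the interval of the difference ran from -0.65 to 0.69. The other *Slc6a9* probe set gave 0.70 (limma, unadjusted p = 0.180), and the average of both gave 0.36 (limma, adjusted p = 0.675). *Slc6a8* (the creatine transporter) differed by 0.02 on its brightest probe set, with an interval from -0.30 to 0.34, and by 0.67 on the other, which was named after its value was seen (limma, unadjusted p = 0.0329). The 3 GABA and betaine carriers on the array (*Slc6a11*, *Slc6a12* and *Slc6a13*) and the dopamine and serotonin transporters *Slc6a3* and *Slc6a4* were too dim to test.

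The sodium-coupled neutral amino acid transporters of Slc38 were all tested, and none of the 9 was called by limma, with 1 at an unadjusted p under 0.05. *Slc38a4* (SNAT4) came closest, with 12.57, 12.30, 12.56 and 12.51 in βRapKO islets and 12.77, 12.91, 12.96, 12.85 and 12.70 in WT islets. Each βRapKO value lay under each WT value, and the difference was -0.35 ± 0.09 (SE; limma, adjusted p = 0.0615). Its other probe set gave -0.22. *Slc38a4* passed in the fit whose prior variance followed the signal (adjusted p = 0.0145) and in the methods' t-test after adjustment (adjusted p = 0.0476).

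*Slc38a2* (SNAT2), a system A carrier that Atf4 induces when amino acids are scarce, had 12.28, 12.28, 12.39 and 12.23 in βRapKO islets and 12.38, 11.90, 12.62, 12.19 and 12.56 in WT islets. The difference was -0.03, with a 95% interval from -0.37 to 0.30 (limma, adjusted p = 0.929). *Slc38a5* (SNAT5, a system N glutamine carrier) had 9.60, 9.75, 10.01 and 8.59 in βRapKO islets and 8.96, 7.63, 9.40, 8.94 and 8.99 in WT islets. One array in each group lay well below the rest, and the difference of 0.70 ± 0.39 did not pass (limma, adjusted p = 0.339). *Slc38a1* (SNAT1) gave -0.15 on its brightest probe set. A dim second *Slc38a1* probe set, named after its values were seen, had 6.45, 6.60, 5.90 and 6.89 in βRapKO islets and 3.90, 2.99, 5.03, 2.26 and 5.75 in WT islets, a difference of 2.47 ± 0.69 (limma, unadjusted p = 0.00647). The 2 probe sets of *Slc38a1* therefore disagreed.

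None of the members known to work at the lysosome, where mTORC1 reads amino acid supply, passed the test. *Slc38a9* (SNAT9, the lysosomal arginine sensor that binds the Rag GTPases) had 8.38, 8.71, 8.29 and 8.37 in βRapKO islets and 8.46, 8.34, 8.39, 8.39 and 8.28 in WT islets, a difference of 0.06 with a 95% interval from -0.17 to 0.29. The other 6 *Slc38a9* probe sets gave 0.09 to 0.42, none at an unadjusted p under 0.05, and the average of all 7 gave 0.26, which did not pass the test (limma). *Slc36a1* (PAT1, a proton-coupled carrier of lysosome and plasma membrane, and the E-box promoter shown above) had 10.24, 10.41, 10.52 and 10.10 in βRapKO islets and 10.10, 9.99, 10.30, 10.18 and 10.35 in WT islets, a difference of 0.13 with an interval from -0.13 to 0.39. *Slc36a4* (PAT4) differed by -0.10 and *Slc38a7* (SNAT7, which exports glutamine from lysosomes) by -0.14, with adjusted p of 0.591 and 0.574 (limma). *Slc38a10* (SNAT10), another carrier of the Slc38 family, differed by 0.17 on the probe set used (limma, adjusted p = 0.358). Its other 6 probe sets all had positive differences, the average of all 7 gave 0.46 (limma, adjusted p = 0.274), and on 2 of them the groups did not overlap (limma, unadjusted p = 0.00701 and 0.00556). Those 2 were named after their values were seen.

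Both tested members of Slc43 were called, in opposite directions. *Slc43a3*, which carries purine nucleobases and not amino acids, had 8.92, 9.72, 9.33 and 9.53 in βRapKO islets and 8.47, 8.32, 8.50, 8.64 and 8.85 in WT islets. It rose by 0.82 ± 0.17, or 1.77-fold, in βRapKO islets (SE; limma, adjusted p = 0.0287), on the one probe set of that gene. *Slc43a2* (LAT4, a facilitated carrier of leucine and other large neutral amino acids) had 11.00, 10.87, 11.07 and 11.15 in βRapKO islets and 11.28, 11.44, 11.59, 11.30 and 11.45 in WT islets. It fell in βRapKO islets by 0.39 ± 0.10 on the log2 scale, and was 1.31-fold higher in WT islets (SE; limma, adjusted p = 0.0497). The other 2 *Slc43a2* probe sets gave -0.09 and -0.43. *Slc43a1* (LAT3) was too dim to test.

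**Figure D3:**
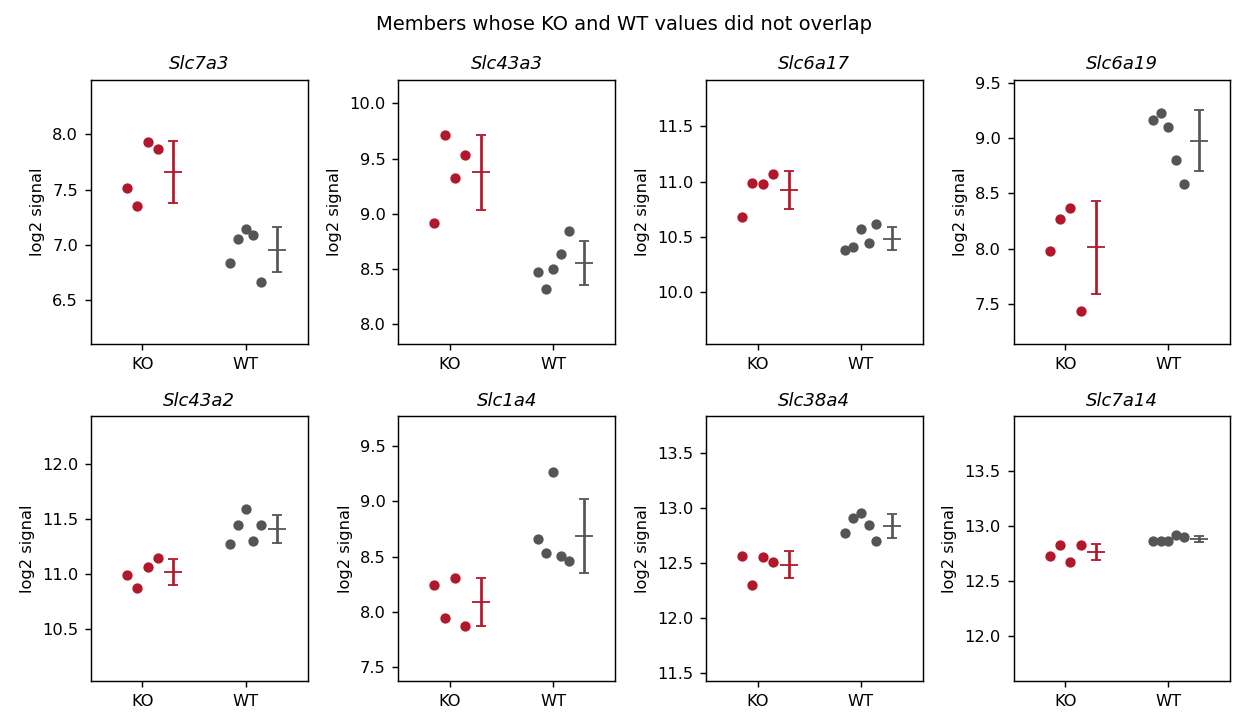
Log2 signal of the 8 tested members whose βRapKO (KO, left) and WT (right) values did not overlap, 1 point per array, with the mean and SD beside the points. *Slc7a3*, *Slc43a3* and *Slc6a17* have the higher KO values, and the other 5 the lower.

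The 5 calls lay close to the threshold. Their adjusted p ran from 0.0287 to 0.0497, and none passed in the fit that kept the dim genes, where they ran from 0.0580 to 0.0928. The direction of each held under all 18 other settings tried, while the call held in 5 of the 18 for *Slc43a3*, *Slc6a17* and *Slc6a19*, in 4 for *Slc43a2* and in 3 for *Slc7a3*. With single arrays left out, *Slc43a3* and *Slc6a17* passed only without βRapKO replicate 1 or WT replicate 5, *Slc6a19* only without βRapKO replicate 3 or WT replicate 5, *Slc7a3* only without βRapKO replicate 2 or WT replicate 3, and *Slc43a2* in none of the 9, the highest adjusted p being 0.129.

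Marker levels of other cells were set beside the members. In a fit with the acinar marker mean as a covariate, no member had a slope on it, either adjusted or at an unadjusted p under 0.05, beside 0.169% and 4.32% of all tested genes. *Slc7a3*, *Slc43a2* and *Slc43a3* stayed called in that fit, and *Slc6a17* (adjusted p = 0.0579) and *Slc6a19* (adjusted p = 0.0514) did not. With the stromal marker mean as a covariate the standard errors were 2.19 times larger (median), as stromal markers and genotype moved together, and 2 genes of all tested were called, neither a member. The differences in that fit were 0.95 for *Slc7a3*, 0.64 for *Slc43a3*, 0.29 for *Slc6a17*, -0.34 for *Slc6a19* and -0.59 for *Slc43a2*.

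Among genes that sense amino acids upstream of mTORC1, none was called. The list held 34 tested genes, of the Rag, GATOR, Sestrin, Castor and folliculin group and of mTORC1 itself. The 1 called was *Rptor*, the gene deleted in βRapKO beta cells, 2.94% of the list beside 6.3% of all tested genes. *Rptor* is also counted among the lower genes that follow. The median difference was -0.07, and 23 of 34 were negative. At an unadjusted p under 0.05 (limma) there were 5 of 34, all with lower βRapKO means, beside 21.8% of all tested genes. The groups did not overlap for 4 of 34, all on the lower side (*Rptor*, *Sesn3*, *Fnip1* and *Seh1l*). Over all tested genes the groups did not overlap for 12.5% in either direction and for 5.05% on the lower side. *Sesn3*, a Sestrin, named after its value was seen, was lower in all βRapKO arrays than in any WT array, at -0.34 ± 0.10 (limma, adjusted p = 0.0708).

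*Atf4* and its targets outside the transporter families included 4 called genes of 25 tested, all lower in βRapKO islets. Of all tested genes, 6.3% were called in either direction and 2.63% lower. The median over the 25, *Atf4* among them, was -0.23 and 19 were negative, while over all tested genes the median was 0.04 and 5976 of 13644 were negative. *Atf4* itself differed by -0.23 (limma, adjusted p = 0.477). At an unadjusted p under 0.05 there were 10 of 25, 8 lower and 2 higher, beside 21.8% of all tested genes. The 2 higher, named after their values were seen, were *Cth* (1.12) and *Ppp1r15a* (0.27), neither called (limma, adjusted p = 0.161 and 0.183). *Atf5*, a related transcription factor, had 10.60, 10.06, 9.58 and 10.56 in βRapKO islets and 11.37, 11.46, 11.66, 11.60 and 12.02 in WT islets, a difference of -1.42 ± 0.23 (limma, adjusted p = 0.00897). *Mthfd2*, of mitochondrial folate metabolism, had 9.45, 9.57, 9.57 and 9.28 in βRapKO islets and 10.24, 9.95, 10.23, 10.42 and 10.28 in WT islets, a difference of -0.76 ± 0.11 (limma, adjusted p = 0.00682). *Vldlr*, a lipoprotein receptor, fell by 0.80 and *Cbs*, of cysteine synthesis, by 0.62 (limma, adjusted p = 0.0291 and 0.0295). *Vldlr* and *Cbs* lost their calls in 9 and 10 of 18 other settings. Among the transporters that Atf4 is known to induce, *Slc38a2* and *Slc7a5* did not pass and *Slc7a11* was too dim to test. These 3 are not a full list of such transporters. Other members that were not called lay on both sides of 0, among them *Slc1a5* (1.20), *Slc6a9* (0.02), *Slc7a1* (-0.08), *Slc3a2* (-0.18) and *Slc1a4* (-0.59).

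Enzymes that use the transported amino acids included 5 called genes of 24 tested, 3 higher and 2 lower, beside 3.67% and 2.63% of all tested genes. *Gad1*, which makes GABA from glutamate, had 12.20, 12.03, 12.22 and 12.33 in βRapKO islets and 13.45, 13.14, 13.44, 13.29 and 13.23 in WT islets. It was 2.16-fold higher in WT islets, a difference of -1.11 ± 0.10 (SE; limma, adjusted p = 7.37e-04). *Abat*, which breaks GABA down, fell by 0.52 (limma, adjusted p = 0.0202) and lost its call in 7 of 18 other settings. *Oat*, which links ornithine to glutamate, had 10.00, 9.42, 9.75 and 9.45 in βRapKO islets and 8.57, 7.98, 8.71, 8.82 and 8.35 in WT islets, a difference of 1.17 ± 0.19 (limma, adjusted p = 0.0106). *Arg1*, which splits arginine into ornithine and urea, had 11.33, 11.29, 11.39 and 10.91 in βRapKO islets and 10.54, 10.38, 10.00, 10.57 and 10.16 in WT islets, a difference of 0.90 ± 0.15 (limma, adjusted p = 0.0116). *Gldc*, of the glycine cleavage system, was higher by 1.54 ± 0.33 and is named after its value was seen (limma, adjusted p = 0.0314), a call lost in 12 of 18 other settings. *Gad1*, *Oat*, *Arg1*, *Atf5* and *Mthfd2* kept their calls in 16 of 18 other settings each. With probe sets of a gene averaged, *Gad1* lost its call, at -0.83 (limma, adjusted p = 0.332). So did *Abat* at -0.65 and *Cbs* at -0.70 (limma, adjusted p = 0.483 and 0.242).

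**Figure D4:**
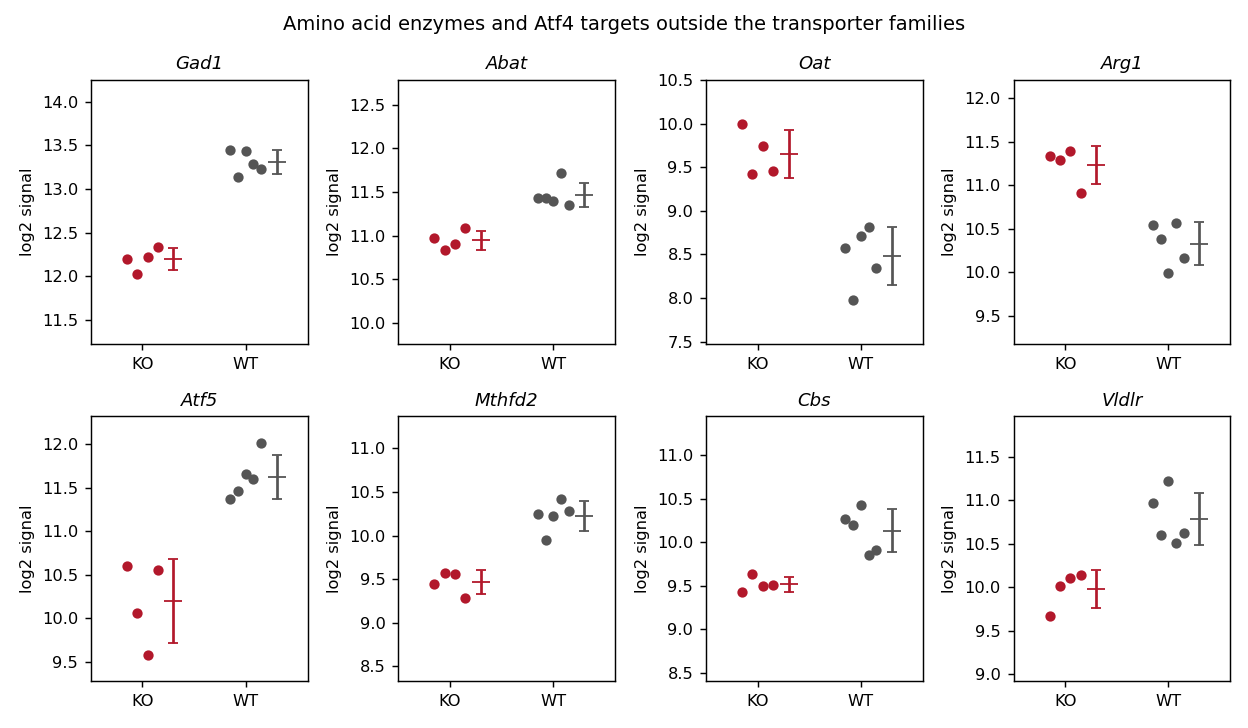
Log2 signal of 4 enzymes of GABA and arginine metabolism and of 4 Atf4 targets, none of them a transporter, in 4 βRapKO (KO, left) and 5 WT (right) arrays, with the mean and SD beside the points. *Oat* and *Arg1* have the higher KO values, the other 6 genes the lower, and KO and WT points do not overlap in any panel.

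Among 14 tested transporters of related families, *Slc17a9*, the vesicular nucleotide transporter, was the one called, a share of 7.14% beside 6.3% of all tested genes. It had 8.59, 9.002, 8.67 and 8.43 in βRapKO islets and 8.21, 7.81, 8.22, 7.95 and 8.23 in WT islets, a difference of 0.59 ± 0.14 (limma, adjusted p = 0.0442). The call was lost when any single array was left out.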

How the data were processed

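Islet RNA was labelled as biotinylated cRNA and hybridised to Affymetrix mouse expression arrays, 4 βRapKO and 5 WT. The authors deposited 1 table of log2 signals for 45037 probe sets, whose summarisation and scaling were not given in the sources used here. Array medians lay between 6.85 and 7.05, the highest value was 15.6, and 43 to 107 values per array stood at the floor of 0. Probe sets were named through the platform annotation: 34945 had 1 gene, 932 several and 9160 none, and those with several or none were left out. Each gene was read from its brightest probe set, the 25% of genes with the lowest mean (under 5.51) were dropped, and limma 3.58.1 in R 4.3.3 was fitted to the values as deposited. The study's methods name an unpaired t-test, which was run as an alternative. The code was checked on simulated arrays. Marker means were compared by exact permutation of the arrays. Named with all values were called members, members without overlap, and a list of 14 heavy and light chains, lysosomal and islet-cell transporters; from the other lists, at most 4 called genes each. The members, lists and rules were chosen with earlier results of these data known. Pools of animals were the replicates, and their number limits the precision.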

Additional observations from a re-analysis of the deposited data

Results flagged for a closer look

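Among 122 groups of values (members, named genes and marker means, βRapKO and WT apart), 11 held an array far from the rest by Dixon's test at the 95% level, which chance alone would give in about 1 group in 20. For 6 members the far value was in a βRapKO array. *Slc1a1* was 5.54 in βRapKO replicate 4, with the other 3 between 6.47 and 6.50. *Slc6a15* was 7.07 in replicate 2, against 7.80 for the nearest βRapKO array, and *Slc7a1* was 11.24 in replicate 1, against 11.03. *Slc7a8* was 10.84 in replicate 4, against 10.46, the one βRapKO array that reached the WT range. *Slc36a3* was 4.32 in replicate 2, against 6.53, and *Slc38a1* was 6.68 in replicate 1, against 7.35.

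For 3 members the far value was in a WT array. *Slc1a4* was 9.27 in WT replicate 3, against 8.66 for the nearest WT array. *Slc6a2* (the noradrenaline transporter) was 5.48 in WT replicate 1, against 6.51, and *Slc38a5* was 7.63 in WT replicate 2, against 8.94. Outside the families, *Abat* was 11.71 in WT replicate 4, against 11.43, and the alpha cell marker mean was 13.60 in WT replicate 5, against 13.31. These values were spread over 8 of the 9 arrays, all but βRapKO replicate 3.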

How the results depend on the processing

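With 4 and 5 arrays, differences of dim members could not be resolved, and the 5 calls sit near the threshold. The count of members called, 3 higher and 2 lower, became 0 and 0 with no filter on dim genes, with probe sets of a gene averaged, with a replicate block and with the stromal covariate. It became 0 and 1 with arrays centred on their medians, 2 and 4 with a prior variance that followed the signal, and 1 and 2 with the methods' t-test after adjustment. With the acinar covariate it was 2 and 1. At the methods' unadjusted threshold the t-test passed 6 higher and 7 lower. With the added 1.5-fold limit it passed 6 members, *Slc1a5*, *Slc6a15*, *Slc7a3* and *Slc43a3* higher and *Slc1a4* and *Slc6a19* lower. The share of all genes at either t-test threshold was not counted, so these counts are not read as a result about the members. By limma, 21.8% of all tested genes had an unadjusted p under 0.05. With single arrays left out, the counts ran from 0 to 3 higher and from 0 to 1 lower. Over all genes the number called moved too, from 860 of 13644 as reported. It was 452 of 18193 with no filter, 317 with probe sets averaged, 474 with centred arrays and 1260 with the prior that followed the signal. The adjusted t-test called 717, the acinar covariate fit 696, and fits without single arrays 372 to 800. Those totals also stand beside the list counts below. The median member difference was 0.13 with probe sets averaged and from -0.07 to 0.05 with single arrays left out.

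Replicate numbers are shared between the groups, and the deviations of same-numbered arrays correlated weakly (-0.04, 0.09, 0.12 and -0.03 for numbers 1 to 4). The highest correlations with a WT array of another number were 0.080, 0.083, 0.060 and 0.157. The numbers were not taken as pairs, but these values are mixed and do not settle whether the arrays were paired. The replicate block, in which WT replicate 5 has no partner, called 61 of all genes.

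Of the sensing and mTORC1 genes, *Rptor* included, 0 were called with no filter, averaged probe sets, the t-test, the block or the stromal covariate. There were 2 with the trended prior, and 0 to 1 with single arrays left out. Of the Atf4 targets, 2 were called with no filter, 7 with the trended prior, 0 with the block or the stromal covariate, and 2 to 4 with single arrays left out. Of the related transporters, 0 were called under all alternatives but the trended prior, single arrays left out included. Of the enzymes, 3 were called with centred arrays, 2 with averaged probe sets, 1 with the block, 0 with the stromal covariate, and 3 to 5 with single arrays left out. *Rptor* missed the threshold with no filter (-0.72, limma, adjusted p = 0.0786), averaged probe sets (-0.16, 0.888), the methods' t-test (-0.72, 0.0670), the block (-0.76, 0.0866) and the stromal covariate (-0.47, 0.637), and ran from -0.87 to -0.63 with single arrays left out.

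Several members that were not called changed sign, some near 0 and others not, such as *Slc36a3* (0.72 as reported), *Slc38a5* (0.70) and *Slc6a2* (0.44). With centred arrays *Slc6a8* was -0.020 and *Slc6a9* -0.020. With quantile normalization *Slc6a9* was -0.032, *Slc38a2* 2.87e-04 and *Slc38a9* -0.0031. With averaged probe sets *Slc7a1* was 0.22, *Slc38a1* 1.16 and *Slc38a2* 0.0083. With the block *Slc6a9* was -0.19, *Slc36a3* -0.033 and *Slc38a2* 0.024, and with the acinar covariate *Slc6a9* was -0.039. With the stromal covariate *Slc3a1* was -0.16, *Slc6a2* -0.0031, *Slc6a6* 0.058, *Slc6a8* -0.028, *Slc7a2* -0.20, *Slc7a6* 0.023, *Slc36a1* -0.065, *Slc38a5* -0.10 and *Slc38a10* -0.014.

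With single arrays left out, *Slc3a1* ran from -0.088 to 0.24, *Slc6a8* from -0.064 to 0.088, *Slc6a9* from -0.19 to 0.18, *Slc36a3* from -0.033 to 1.32, *Slc38a1* from -0.23 to 0.028, *Slc38a2* from -0.14 to 0.037 and *Slc38a9* from -0.026 to 0.11. The acinar marker mean ran from -1.04 to 0.49. Except as averaging or the missing array itself shows, the cause was not tested.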

Other observations

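Several members outside the roles described above had wide intervals. *Slc6a20a* (SIT1, a carrier of proline and other imino acids) had 6.91, 7.34, 6.98 and 6.74 in βRapKO islets and 6.14, 7.47, 6.01, 6.56 and 5.32 in WT islets, a difference of 0.69 ± 0.37 (limma, adjusted p = 0.321). *Slc7a7* (y+LAT1) had 7.25, 6.98, 6.63 and 6.74 in βRapKO islets, against 5.65, 5.91, 7.33, 6.78 and 5.26 in WT islets. *Slc38a3* (SNAT3) had 7.08, 6.24, 5.99 and 2.30 in βRapKO islets and 7.06, 7.04, 5.79, 6.14 and 6.29 in WT islets, so its difference of -1.06 rests on βRapKO replicate 4. It was -0.028 without that array. The other tested members not yet given, *Slc6a2*, *Slc6a18*, *Slc6a19os*, *Slc7a6os*, *Slc36a2*, *Slc36a3* and *Slc38a6*, differed by -0.53 (*Slc6a18*) to 0.72 (*Slc36a3*), with adjusted p from 0.341 to 0.759 (limma). *Slc1a2*, *Slc1a3*, *Slc1a6*, *Slc1a7*, *Slc6a5*, *Slc6a7*, *Slc6a14*, *Slc6a16*, *Slc6a20b*, *Slc6a21* and *Slc36a1os* were too dim to test. *Slc18a2* (the vesicular monoamine transporter VMAT2), outside the member families and named after its values were seen, had 7.55, 7.12, 7.30 and 6.61 in βRapKO islets and 6.40, 6.40, 6.44, 6.52 and 5.51 in WT islets, a difference of 0.90 ± 0.25 that did not pass (limma, adjusted p = 0.0708).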
